A study of Mus musculus with 4 samples.

Results

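Heat shock and endoplasmic reticulum (ER) chaperone genes were described in 4 lines of L1210, a mouse lymphocytic leukemia line. The set held 10 genes, Hspa5, Hsp90b1, Hspa1a, Hspa1b, Hsp90aa1, Dnajb1, Hsph1, Hspa8, Xbp1 and Dnajb9, and every probe of the deposited table that carried one of these symbols was taken. Of the 10 genes, 9 had a probe under their own symbol, with 14 probes in all, out of 24561 genes and 55681 probes on the array. On all 4 arrays, 13 of the 14 probes were well above background, a call that the Feature Extraction scanner software makes for each spot.

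Chaperones bind unfolded proteins and help them fold. In the cytosol, heat and other stress release the transcription factor Hsf1, which binds heat shock elements and raises inducible chaperones such as Hspa1a. In the ER, unfolded proteins free the sensors Ern1, Eif2ak3 and Atf6 from the chaperone Hspa5, and this unfolded protein response raises ER chaperones through Xbp1 and Atf6 and stress genes such as Ddit3 through Eif2ak3.

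The cells, of DBA subline 212, had been infected with lentivirus and sorted as stable GFP-positive lines, the control included, and all were grown in RPMI 1640 with serum. L1210-control carried the control construct, L1210-Fbxw11a the full-length variant of Fbxw11, a substrate-recognition subunit of an SCF ubiquitin ligase, L1210-Fbxw11c a shorter variant that lacks an early exon, and L1210-Fbxw11d one that lacks the next exon as well; the lines are named below by these constructs, as control, Fbxw11a, Fbxw11c and Fbxw11d. Each line was measured on 1 Agilent array, so there was no replicate and no test, every difference below compares arrays, and whether a line is a pool or a clone is not given in the sources used here. The Fbxw11d array lay alone on a separate slide, so slide and variant cannot be told apart in that line.

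Across the arrays, 62.5% to 68.7% of probes were well above background, and the 75th percentile of signal, to which each array was scaled, was 620 to 672 on the first slide and 954 for Fbxw11d. Markers of leukocytes were present (Ptprc and Coro1a on all 4 arrays), as were the B lineage markers Pax5, Cd79a and Vpreb1, 4 of 6 T lineage markers and 4 of 6 myeloid markers. These B lineage markers were dim. Pax5 read 29.7, 30.4, 15.7 and 16.7 in the control, Fbxw11a, Fbxw11c and Fbxw11d, and Vpreb1 read 24.1 to 34.5, beside 1293 to 1599 for Cd3e. Also well above background on all 4 arrays were 3 of 5 stromal and 2 of 5 plasma cell markers. Cd79b, Ms4a1, Cd3d and Cd3g, among others, were well above background on none of the arrays. The lymphocytic label thus rested on a partial marker set, dim for the B lineage. The Fbxw11 probe read 13153, 16339, 15871 and 13383 in the control, Fbxw11a, Fbxw11c and Fbxw11d. Whether that probe lies in the inserted cDNA was not analysed here, so it did not check the labels. The paper reports that real-time RT-PCR and western blots showed high Fbxw11 in the variant lines.

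The study asked how overexpressed Fbxw11 variants alter gene expression in L1210 cells. With each array scaled to its 75th percentile and each gene taken by its brightest probe, no chaperone gene differed from the control by 2-fold, or by 1.5-fold, in any variant line. Under scaling on the spike-in controls, described below, Dnajb9 in Fbxw11a (-0.60 on the log2 scale) and Hspa1a and Hsph1 in Fbxw11d (0.80 and 0.84) passed 1.5-fold, where 6.93% of all genes passed it lower in Fbxw11a and 52.9% higher in Fbxw11d, and none passed 2-fold. At 2-fold in either direction, 0 of 9 genes were called in each line, beside 4.53% of all tested genes in Fbxw11a, 3.98% in Fbxw11c and 5.83% in Fbxw11d. At 1.5-fold higher, 0 of 9 were called beside 6% of all genes in Fbxw11a, 4.5% in Fbxw11c and 4.88% in Fbxw11d. At 1.5-fold lower, 0 of 9 were called beside 4.84%, 5.48% and 9.89% in the same order. With 9 genes, less than 1 call was the background share in every case, so a count of 0 is near it.

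Ranges over the 4 lines were narrow on the scale of the printed signals. On the brightest probe of each gene, the highest signal exceeded the lowest by a median of 1.22-fold (1.05-fold for Hspa8 to 1.38-fold for Dnajb9), beside 1.28-fold over the 16245 genes that every array detected well above background and 1.18-fold over the 3730 of those with a mean signal of 5000 or more. A range of 2-fold was reached by 8.43% of all genes and by 0 of 9 chaperone genes. Most chaperone probes were bright, and their range lay beside that of bright genes. The median log2 ratio of the 9 genes was -0.07, 0.08 and -0.02 in Fbxw11a, Fbxw11c and Fbxw11d, and that of all genes was 0.00, 0.02 and 0.04.

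**Figure D1:**
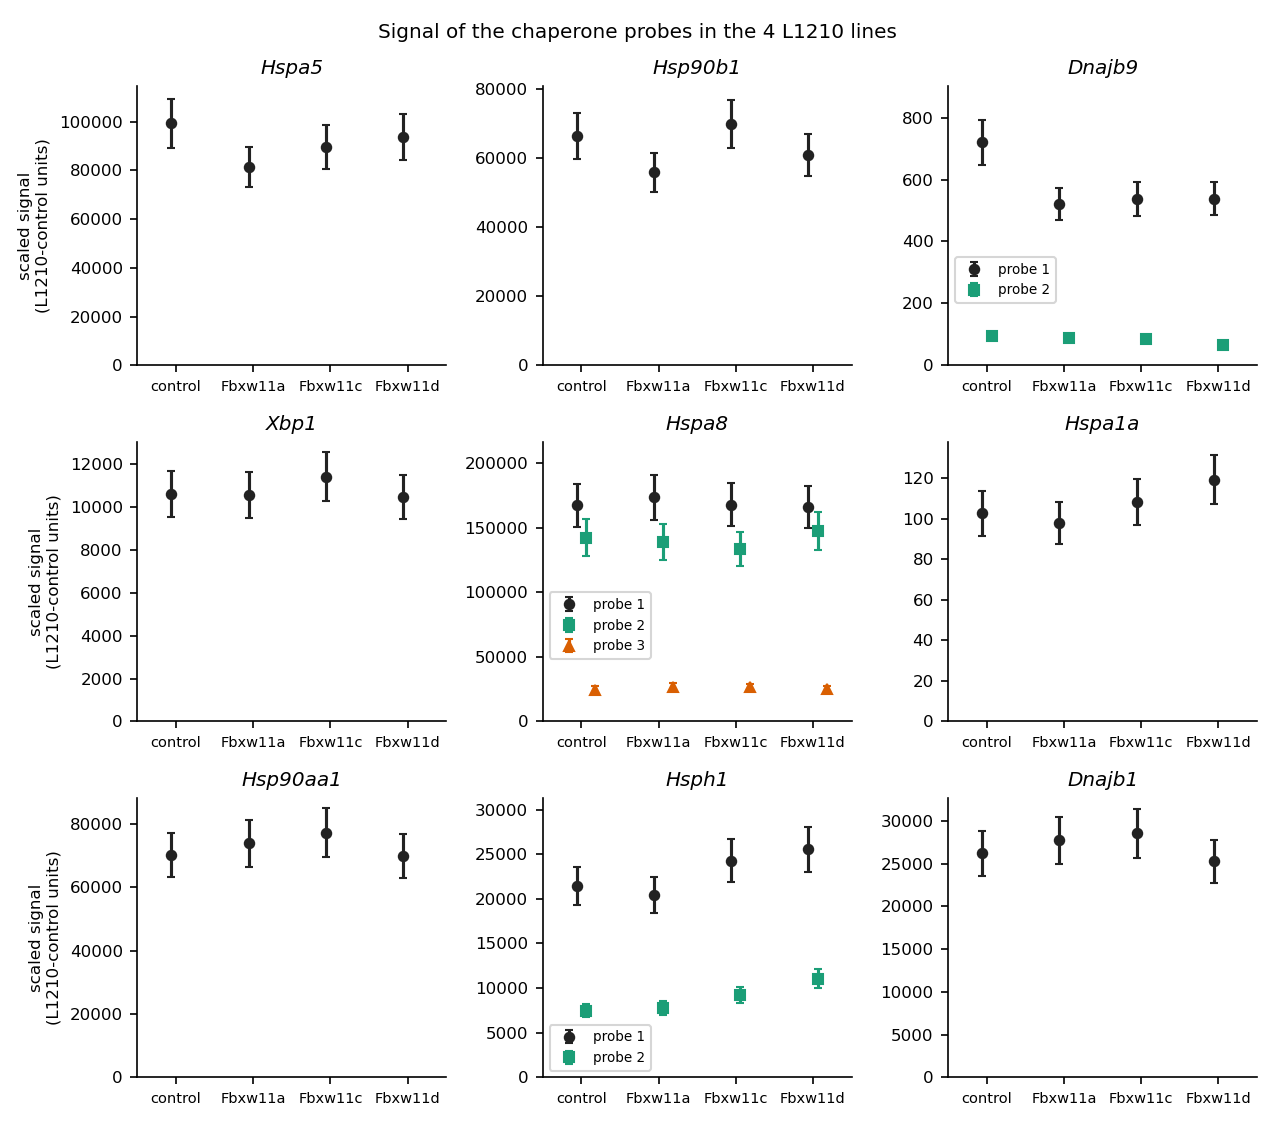
Scaled signal (vertical axis, in units of the control array, each panel from 0 on its own scale) of every chaperone probe well above background on all arrays, in the 4 lines; bars are the error that the scanner software gives each spot. Dnajb9 probe 1 is highest in the control at 720, Hspa5 is lowest in Fbxw11a at 81517, and Hsph1 probe 2 is highest in Fbxw11d at 11065.

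Differences smaller than 1.5-fold were set against 2 measures. The first was the spot SD, the spread of a log2 ratio of single spots within these arrays. It came from the 50 nearest in brightness of 399 probes printed on 10 spots each. The spot SD leaves out any spread between cultures, RNA extracts or arrays. The brightest 39 of these probes had a median signal of 14337 in the control, far under Hspa5 (99356) or Hspa8 (167157). Both shared their spot SD in Fbxw11a, 0.08, with the brighter Hsph1 probe (21466). For the brightest chaperone probes it was thus carried over from dimmer spots, and whether it holds there was not tested. The second was the 5th to 95th percentile of the log2 ratio among genes with a mean signal within 2-fold of the gene's own. The scanner software's error was 10.0% of the signal for most chaperone probes and 10.9% at most for the 13 measured ones. On the bright probes this error is wider than the spot SD, and the ratios below were not judged against it.

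Upstream sequences are shown for ER and heat shock genes that the stress factors are known to act on, so that a reader can see which carry the elements. They are RefSeq sequences of build GRCm38.p6, read 5′ to 3′ on the gene's strand from -150 to -31 of the start site, and from -230 to -71 for Hsp90b1. The ER stress element (CCAAT, any 9 bases, then CCACG, on either strand) is in capitals in Hspa5 and Hsp90b1, and the short heat shock forms GAANNTTC and TTCNNGAA are in capitals in Hspa1a and Hsph1.
Hspa5, chr2:34771940-34772059, plus strand: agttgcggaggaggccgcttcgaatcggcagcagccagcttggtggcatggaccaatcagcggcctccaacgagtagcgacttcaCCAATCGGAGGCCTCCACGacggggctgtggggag
Hsp90b1, chr10:86705515-86705674, minus strand: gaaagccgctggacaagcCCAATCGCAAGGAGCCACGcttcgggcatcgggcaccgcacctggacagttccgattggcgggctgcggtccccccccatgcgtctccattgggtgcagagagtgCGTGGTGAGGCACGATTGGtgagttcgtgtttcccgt
Dnajb9, chr12:44210099-44210218, minus strand: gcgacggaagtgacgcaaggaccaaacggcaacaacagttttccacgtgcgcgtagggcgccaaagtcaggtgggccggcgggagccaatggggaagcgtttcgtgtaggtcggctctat
Hspa1a, chr17:34972187-34972306, minus strand: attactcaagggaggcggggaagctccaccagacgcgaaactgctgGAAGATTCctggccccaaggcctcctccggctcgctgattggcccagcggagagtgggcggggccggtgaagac
Hsph1, chr5:149636346-149636465, minus strand: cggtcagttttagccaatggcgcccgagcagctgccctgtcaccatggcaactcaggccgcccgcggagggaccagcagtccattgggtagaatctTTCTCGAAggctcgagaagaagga
Hspa5 held the ER stress element 1 time, from -65 to -47 of the start site, and Hsp90b1 held it at -212 to -194 and, on the other strand, at -107 to -89. The whole window of Dnajb9 held no match to either ER form, and the Hspa1b stretch is not shown because Hspa1b is a near copy of Hspa1a.

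Windows of 300 bases, 250 before the start and 50 after it, were given for 8 of the 10 genes. The ER stress element was found in 0.119% of all 32851 promoters of that length and in 2 of the 8 genes, Hspa5 and Hsp90b1. The Xbp1 and Atf6 form TGACGTGG was in 0.676% of all promoters and in no member. The 3-unit heat shock element (GAA, 2 bases, TTC, 2 bases, GAA, or the same on the other strand) was in 0.603% of promoters and in Hsph1, as TTCTGGAAAGTTC just past the start site in each of its 2 promoter entries. The short form GAANNTTC, which reads the same on both strands, was in 7.86% of promoters and in Hspa1a, Hspa1b and Hsph1, and TTCNNGAA was in 8.52% and in Hsph1. The windows of Hspa1a and Hspa1b matched at 296 of 300 bases. These matches describe letters only, and 3-unit matches contain the short forms.

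Among the ER chaperones, Hspa5, the ER Hsp70 also called BiP, was lowest in Fbxw11a. Its signal was 99356 in the control, 81517 in Fbxw11a, 89733 in Fbxw11c and 93701 in Fbxw11d. The log2 ratio in Fbxw11a was -0.29 (spot SD 0.08), 1.22-fold lower, and 0.41% of the 488 similarly bright genes were as low or lower. The scanner software's error on these signals was 9936 in the control and 8152 in Fbxw11a. In Fbxw11c and Fbxw11d the log2 ratios were -0.15 and -0.08, each under 2 spot SDs, and no neighbours in the order of the 4 signals differed by 2 spot SDs.

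Hsp90b1, the ER Hsp90 also called GRP94, was likewise lowest in Fbxw11a. It read 66350 in the control, 55941 in Fbxw11a, 69955 in Fbxw11c and 60907 in Fbxw11d. The log2 ratio in Fbxw11a was -0.25 (spot SD 0.08), and 2.49% of 643 similarly bright genes were as low. Fbxw11a lay 1.25-fold under Fbxw11c, the widest gap for this gene, and the ratios of 0.08 in Fbxw11c and -0.12 in Fbxw11d were within 2 spot SDs.

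Dnajb9 is an ER DnaJ co-chaperone of Hspa5 that restrains Ern1. On the scale of the printed signals it had the widest range of the chaperone genes, each taken by its brightest probe. The dimmer Hsph1 probe, described below, ranged more widely, by 1.48-fold. By brightest probe, Hsph1 and Hspa1a ranged more widely than Dnajb9 with median centring. With spike-in scaling Hsph1, Hspa1a, Hspa5 and Hsp90b1 did, with Hsph1 log2 ratios from -0.20 in Fbxw11a to 0.84 in Fbxw11d. The brighter Dnajb9 probe (mm9 chr12:45307313-45307372, minus strand) read 720 in the control, 520 in Fbxw11a, 537 in Fbxw11c and 538 in Fbxw11d. On this scale the 3 variant arrays lay close together and the control array lay above them; with median centring the log2 ratios were -0.46, -0.35 and -0.20, and with spike-in scaling -0.60, -0.57 and 0.17, so that Fbxw11d then lay above the control. The log2 ratios were -0.47 (spot SD 0.10), -0.42 (spot SD 0.09) and -0.42 (spot SD 0.12), and 3.26%, 4.75% and 7.54% of 3010 similarly bright genes were as low in the 3 comparisons. These comparisons share the single control array, so they are not separate pieces of evidence.

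The dimmer Dnajb9 probe (mm9 chr12:45308272-45308331, minus strand) gave a weaker picture. It read 94.5, 87.2, 84.6 and 65.3 in the control, Fbxw11a, Fbxw11c and Fbxw11d, with log2 ratios of -0.12, -0.16 and -0.53, all within 2 spot SDs (0.27, 0.25 and 0.32). On this probe Fbxw11d was the low array, and the Fbxw11a and Fbxw11c arrays lay nearer to the control than on the brighter probe.

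On the 75th percentile scale the summed signals of the myeloid and all-leukocyte markers were also highest in the control, and most of each sum came from Cd68 and Itgam or from Coro1a. The summed signal of the 6 myeloid markers was 15259 in the control against 13071, 11904 and 12311 in Fbxw11a, Fbxw11c and Fbxw11d, and Lyz2 was well above background on none of them. Most of that fall was in Cd68, at 7276 against 5632, 4565 and 5341. Itgam read 5119 against 4671, 4791 and 4978, and Csf1r fell from 1104 to 507 in Fbxw11d. Mpo, at 18.7 in the control, was higher in Fbxw11a and Fbxw11d (21.2 and 20.9). The summed signal of the 3 markers of all leukocytes was 1463 against 1275, 1103 and 1196. Under spike-in scaling both sums were highest in Fbxw11d, at 18497 and 1797. The sums of the plasma cell (2861 to 3244), T lineage (4379 to 4810) and stromal markers (294 to 338) were not highest in the control. Their part in the Dnajb9 values was not tested, and in bulk RNA fewer cells of a type and less RNA per cell cannot be told apart.

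Xbp1, the transcription factor that Ern1 activates by splicing its RNA, differed little. The signal was 10599 in the control, 10555 in Fbxw11a, 11418 in Fbxw11c and 10467 in Fbxw11d, a range of 1.09-fold. Its log2 ratios of -0.01, 0.11 and -0.02 were all within 2 spot SDs. The probe measured total Xbp1 RNA, and the spliced form was not analysed here.

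**Figure D2:**
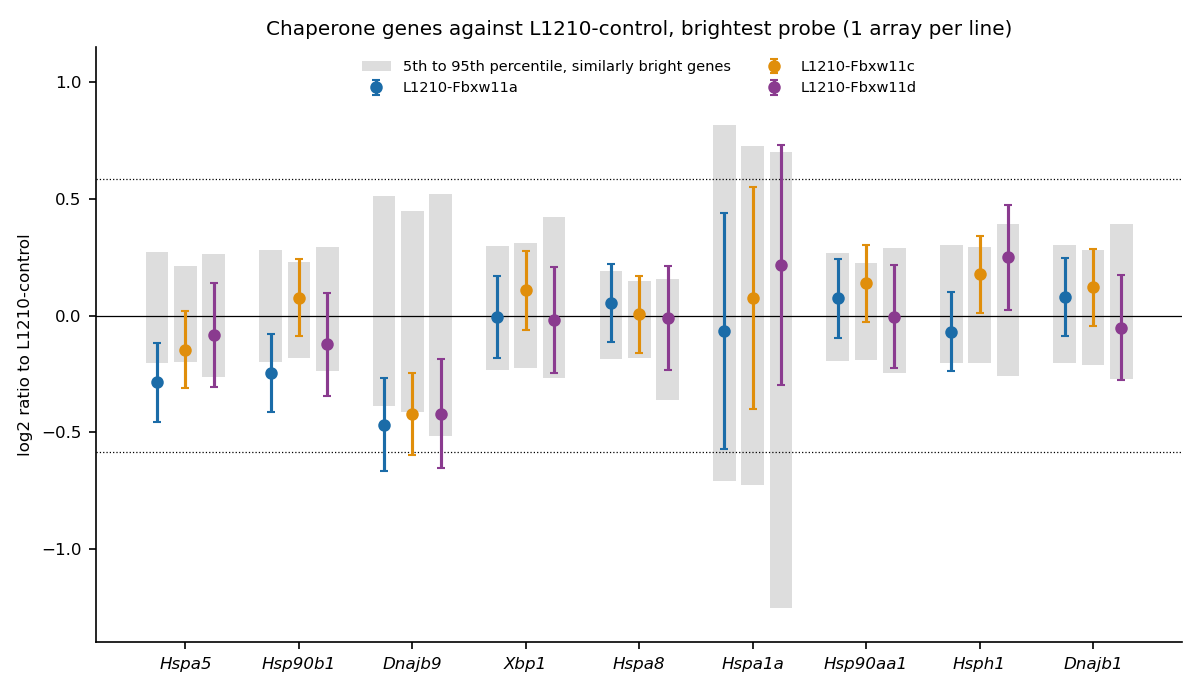
Log2 ratio to the control (vertical axis) of the brightest probe of each chaperone gene in the 3 variant lines; bars are 2 spot SDs either way, grey boxes the 5th to 95th percentile of similarly bright genes, and dotted lines 1.5-fold. Below their grey boxes lie Hspa5, Hsp90b1 and Dnajb9 in Fbxw11a (-0.29, -0.25 and -0.47) and Dnajb9 in Fbxw11c (-0.42), and no point passes a dotted line.

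The inducible Hsp70 genes Hspa1a and Hspa1b are near-identical neighbours, and the array did not separate them. The probe named Hspa1a (mm9 chr17:35107117-35107176, minus strand) lists RefSeq transcripts of both, no probe carried the symbol Hspa1b, and the value below stands for the pair. It is printed here beside a probe of the constitutive Hsp70 gene Hspa8 (mm9 chr9:40612755-40613050, plus strand), with their longest shared stretch, 9 of 60 bases, in capitals. The Hspa8 probe spans more of the genome than its length, as a probe across an intron does.
Hspa1a probe: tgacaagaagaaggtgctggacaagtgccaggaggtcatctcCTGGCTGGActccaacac
Hspa8 probe: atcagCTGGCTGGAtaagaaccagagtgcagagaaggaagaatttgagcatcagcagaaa
The shared stretch lies near one end of each probe, and the Hspa1a probe was not compared with the Hspa8 transcript.

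Of the cytosolic chaperones of the set, Hspa8, the constitutive Hsp70, was the steadiest on the scale of the printed signals. Its brightest probe read 167157, 173493, 167713 and 165904 in the control, Fbxw11a, Fbxw11c and Fbxw11d, a range of 1.05-fold. Of 342 similarly bright genes, 97.7% had a range as wide or wider. Hspa1a ranged less than Hspa8 with normexp, and Dnajb1 did with median centring and with spike-in scaling. With spike-in scaling the Hspa8 log2 ratios were -0.08, -0.15 and 0.58, beside -0.05, -0.03 and 0.53 for Dnajb1. The other Hspa8 probes read 133389 to 147249 and 24596 to 26947 over the arrays, and none of the 9 log2 ratios of the 3 probes, from -0.09 to 0.13, reached 2 spot SDs.

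The Hspa1a probe, which stands for both inducible Hsp70 genes, was well above background on every array but low. It read 103 in the control, 98.0 in Fbxw11a, 108 in Fbxw11c and 119 in Fbxw11d. The log2 ratios of -0.07, 0.08 and 0.22 lay within 2 spot SDs (spot SD 0.25, 0.24 and 0.26), so at this signal a difference of the size seen for Hspa5 was not detectable. No array stood apart.

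Hsp90aa1, the stress-inducible cytosolic Hsp90, read 70084, 73799, 77123 and 69861 in the control, Fbxw11a, Fbxw11c and Fbxw11d, with log2 ratios of 0.07, 0.14 and -0.0046 within 2 spot SDs. Another probe that the table names Hsp90aa1 (mm9 chr12:111929938-111929997, minus strand) was well above background on no array, and its ratios are not given. Dnajb1, the DnaJ partner of cytosolic Hsp70, read 26208, 27691, 28514 and 25267 in the same order, with log2 ratios of 0.08, 0.12 and -0.05, also within 2 spot SDs. Neither gene had an array that stood apart.

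Hsph1, the Hsp110 nucleotide exchange factor of Hsp70, was higher in Fbxw11c and Fbxw11d on each of its probes. The brighter probe (mm9 chr5:150419744-150419803, minus strand) read 21466 in the control, 20446 in Fbxw11a, 24258 in Fbxw11c and 25534 in Fbxw11d. Its log2 ratios were -0.07, 0.18 and 0.25, the latter pair past 2 spot SDs, and 20.0% and 17.5% of 1443 similarly bright genes were as high in those lines. With quantile normalization and the deposited values neither ratio reached 2 spot SDs (0.12 in Fbxw11c and 0.18 in Fbxw11d under each), nor did that of Fbxw11c with spike-in scaling (0.02). On this probe both values lay inside the 5th to 95th percentile of those genes.

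The dimmer Hsph1 probe (mm9 chr5:150420110-150420169, minus strand) read 7466 in the control, 7796 in Fbxw11a, 9231 in Fbxw11c and 11065 in Fbxw11d. The log2 ratios were 0.06, 0.31 and 0.57 (spot SD 0.09, 0.08 and 0.11), and Fbxw11d was 1.48-fold above the control. Of 2534 similarly bright genes, 5.64% were as high in Fbxw11c and 1.105% in Fbxw11d, where the ratio lay above the 95th percentile of 0.42. In Fbxw11d this probe's ratio was 0.79 with median centring and 1.155 with spike-in scaling, the latter past 2-fold. The order of the 4 arrays had Fbxw11d highest and Fbxw11c next on each probe, and the size of the difference in Fbxw11d differed between the probes, 1.19-fold against 1.48-fold.

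The partners of these genes gave the wider setting. A list of 35 cytosolic and mitochondrial partners (co-chaperones, heat shock factors, small heat shock proteins and mitochondrial chaperones) had 34 genes measured. At 2-fold, 0 of 34 were called in each line, beside the 4.53%, 3.98% and 5.83% of all genes given above, and the median log2 ratios were 0.03, 0.07 and 0.09 in Fbxw11a, Fbxw11c and Fbxw11d. Under spike-in scaling Hspa2 (1.02) and Chordc1 (1.0005) passed 2-fold in Fbxw11d, where 10.3% of all genes passed it higher. Hsf1 read 4071, 4350, 4021 and 4942 in the control and the 3 variant lines.

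At 1.5-fold, the small heat shock protein Cryab was the 1 gene of that list called, in Fbxw11c and Fbxw11d, where 5.48% and 9.89% of all genes were called lower. It read 1455 in the control, 1761 in Fbxw11a, 903 in Fbxw11c and 822 in Fbxw11d, with log2 ratios of 0.28, -0.69 and -0.82. Under spike-in scaling the ratio in Fbxw11d was -0.24, short of 1.5-fold. Fbxw11a and the control were the high pair and the other lines the low pair. In each of the low lines 1.11% of 3340 similarly bright genes were as low.

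The other partners with the lowest mean ratio were the Hsp70 co-chaperone Bag3, at -0.25, -0.18 and -0.04, and the ubiquitin ligase Stub1, at -0.18, -0.16 and -0.07. The highest were Hspb1, a small heat shock protein, at 0.43, 0.27 and 0.32, Hspa2, a testis-enriched Hsp70, at 0.01, 0.45 and 0.43, and the DnaJ protein Dnajb4, at 0.55, 0.22 and -0.05. On this scale none of these 5 reached 1.5-fold; in Fbxw11d Hspa2 passed it with median centring (0.65), and Hspa2 and Hspb1 with spike-in scaling (1.02 and 0.91), and the sign of Bag3, Stub1 and Dnajb4 there changed under some alternatives. Above the 95th percentile of similarly bright genes lay Hspb1 in Fbxw11a, Hspa2 in Fbxw11c and Ahsa1, an activator of the Hsp90 ATPase, in Fbxw11d.

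All 34 ER chaperone and unfolded protein response partners were tested, and 33 were well above background on all 4 arrays. The median log2 ratios of these 33 were -0.02, 0.00 and 0.06. At 1.5-fold lower, 1 gene was called in Fbxw11a, 2 in Fbxw11c and 3 in Fbxw11d, and 0 of 34 were called higher in any line. These lower calls, at most 3 of 34, lay near or under the share of all genes called lower. With each array centred on its median, the 3 lower calls in Fbxw11d were lost (Derl3 -0.48, Ddit3 -0.45 and Ppp1r15a -0.39), and Atf6 (0.68), Edem1 (0.62) and Canx (0.59) passed 1.5-fold higher there, beside 12.8% of all genes. With spike-in scaling 20 of 34 passed higher in Fbxw11d and 0 lower, beside 52.9% and 3.38% of all genes.

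Derl3, a component of ER-associated degradation, was the partner furthest from the control. It read 216 in the control, 112 in Fbxw11a, 101 in Fbxw11c and 133 in Fbxw11d, and its log2 ratios were -0.95, -1.09 and -0.70. On this scale it was the 1 partner past 2-fold, in Fbxw11c, where 1.97% of 3097 similarly bright genes were as low. With normexp background correction its ratio there was -0.78, under 2-fold. Under spike-in scaling Derl3 in Fbxw11a (-1.08), Ddit3 in Fbxw11c (-1.02) and Atf6 in Fbxw11d (1.05) passed 2-fold as well.

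Ddit3, the stress transcription factor also called CHOP, and Ppp1r15a, also called GADD34, which reverses the block on translation that Eif2ak3 imposes, followed. Ddit3 read 957 in the control, 745 in Fbxw11a, 524 in Fbxw11c and 601 in Fbxw11d, with log2 ratios of -0.36, -0.87 and -0.67. Ppp1r15a read 8371, 6353, 5814 and 5496 in the same order, with log2 ratios of -0.40, -0.53 and -0.61. In Fbxw11c 0.58% of similarly bright genes were as low as Ddit3, and in Fbxw11d 0.55% were as low as Ppp1r15a. For each of these genes the control was the highest array, and the 3 comparisons share it. Derl3, Ddit3 and Ppp1r15a kept their sign under all 6 alternatives run on the partners, and came nearest to 0 in Fbxw11d under spike-in scaling, at -0.11, -0.08 and -0.02.

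The partners with the highest mean ratio were Atf6, an ER stress sensor, at 0.14, 0.04 and 0.46, the lectin chaperone Canx at 0.01, 0.36 and 0.37, and Edem1, a degradation factor, at 0.14, 0.21 and 0.40. On this scale none reached 1.5-fold.

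Some ER genes, whether past 1.5-fold or not, were low for their brightness. Below the 5th percentile of similarly bright genes were 5 of 33 partners in Fbxw11a, namely the lectin chaperone Calr (-0.32), the protein disulfide isomerase P4hb (-0.24), Manf (-0.29), Derl3 and Ppp1r15a. In Fbxw11c they were 4 of 33, Herpud1, Derl3, Ddit3 and Ppp1r15a, with Canx above the 95th percentile, and in Fbxw11d 4 of 33, Pdia4, Herpud1, Ddit3 and Ppp1r15a. Calr, P4hb and Manf, low in Fbxw11a, had ratios of -0.10, -0.11 and -0.14 in Fbxw11c and of 0.29, 0.09 and 0.12 in Fbxw11d. Some other partners of the ER lumen, chosen after their values were seen, were not low in Fbxw11a, among them Txndc5 at 0.11, Dnajb11 at 0.05, Pdia6 at 0.02 and Hyou1 at 0.01. Others lay between these and the low genes: Pdia3, Pdia4 and Sdf2l1, each at -0.19, and Creld2 at -0.09, none below the 5th percentile. The difference between lines was not tested, for want of replicates.

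**Figure D3:**
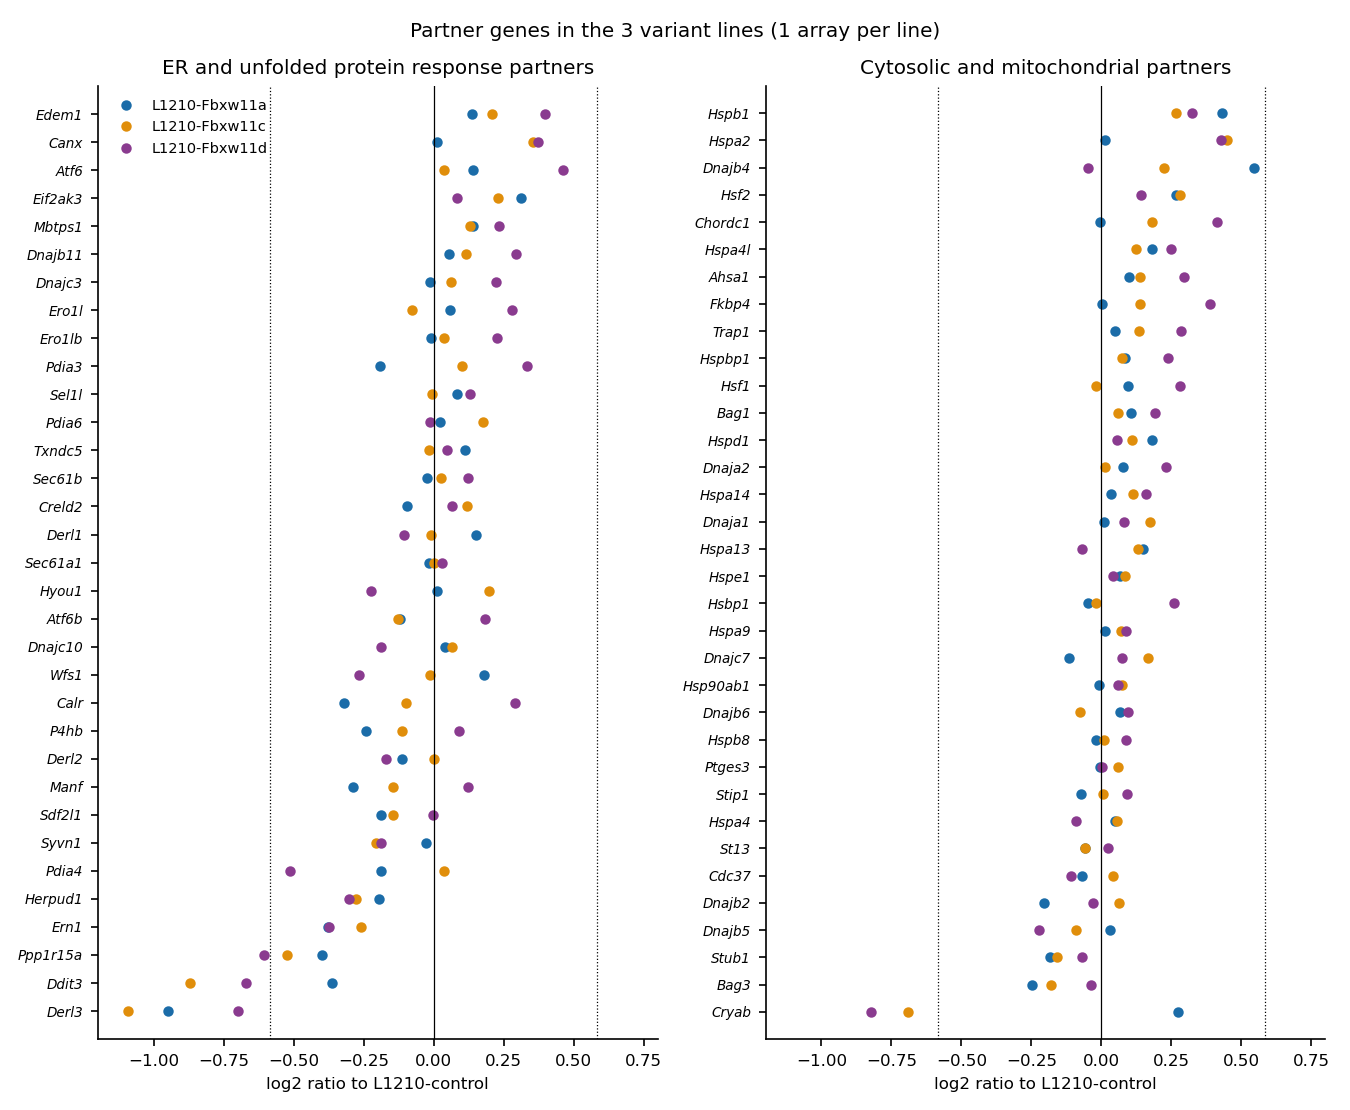
Log2 ratio to the control (horizontal axis) of the 33 ER and unfolded protein response partners and the 34 cytosolic and mitochondrial partners measured on all 4 arrays, sorted by their mean; dotted lines are 1.5-fold. Under the 75th percentile scaling Derl3, Ddit3, Ppp1r15a and Cryab pass the lower line, with Derl3 at -1.09 in Fbxw11c the lowest point, and no gene passes the upper line.

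The genes whose 3 log2 ratios were closest to those of the brighter Dnajb9 probe, by Euclidean distance among 12632 genes with a mean signal of 100 or more, were Usp44, 1700016J18Rik, Tbata, Zfp608 and Aff3. Their distances ran from 0.04 to 0.07. None of the 5 belongs to the lists of chaperones or partners. Those lists name 10, 35 and 34 genes, few beside 12632, so none among 5 does not set Dnajb9 apart from them. The nearest, Usp44, had ratios of -0.43, -0.44 and -0.41.

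The direction of many of these small ratios depended on the processing: it changed under at least 1 of 7 alternatives for 4 of 9 genes in Fbxw11a, 6 in Fbxw11c and 8 in Fbxw11d, and under at least 1 of the 4 that change the scaling or normalization for 3, 6 and 7. Centring each array on its median moved the median of all genes to 0.26 in Fbxw11d, and scaling on the array's E1A spike-in controls moved it to -0.13, -0.13 and 0.63. Both add a constant to an array, so the order of the genes within a line is the same. Hspa5, Hsp90b1 and Dnajb9 in Fbxw11a and Hsph1 in Fbxw11c and Fbxw11d kept their sign under all 7 alternatives. In Fbxw11d the Dnajb9 ratio was 0.17 under spike-in scaling and between -0.48 and -0.20 under the rest.

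**Figure D4:**
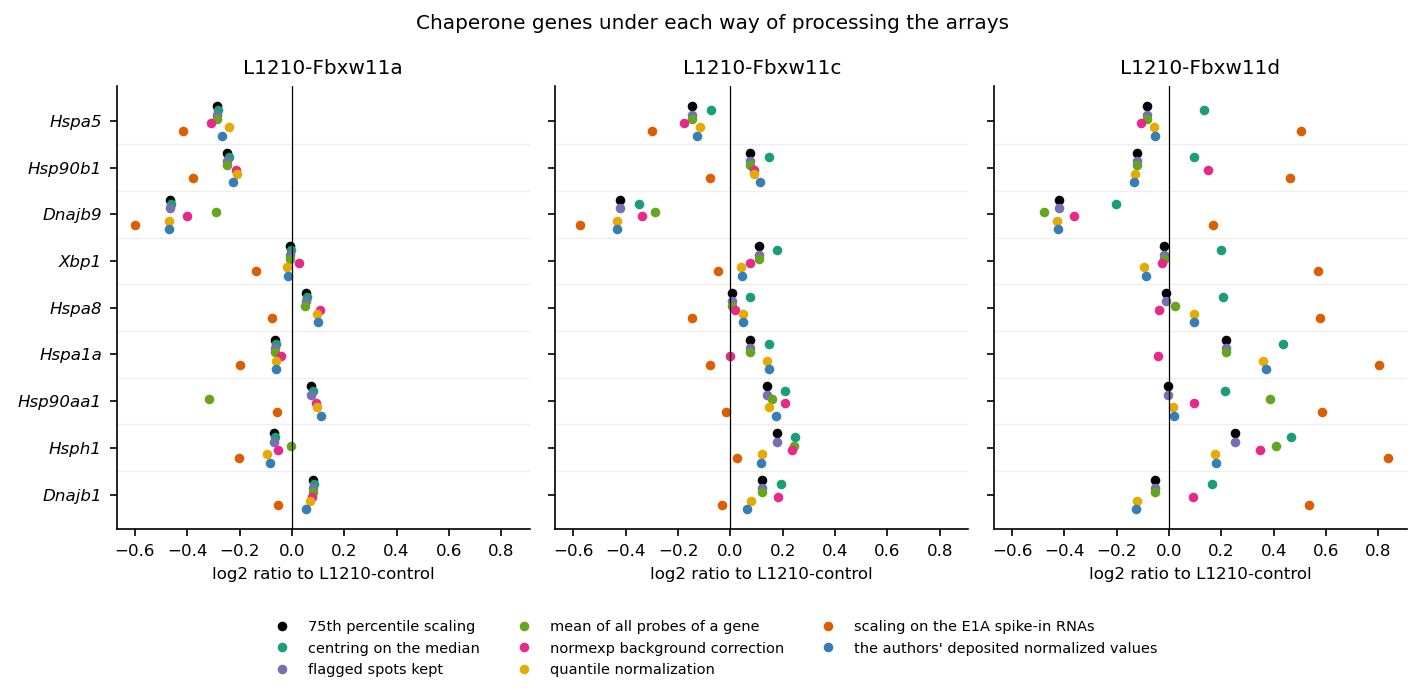
Log2 ratio to the control (horizontal axis) of the 9 chaperone genes in each variant line under the 75th percentile scaling (black) and 7 alternatives. In Fbxw11d the spike-in scaling moves all 9 genes to above 0, to 0.84 for Hsph1, while Hspa5, Hsp90b1 and Dnajb9 in Fbxw11a stay below 0 under every alternative shown.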

How the data were processed

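RNA of 4 L1210 lines was hybridised in 1 colour, with 1 Agilent array per line. The authors deposited scanner output: background-corrected intensity per spot (Feature Extraction, version 9.1 in the submitters' processing notes and 10.7.1.1 in the file header), and a table of log2 values normalized by a method not given in the sources used here. Intensities were scaled here to each array's 75th percentile and averaged over the spots of a probe, without flagged outlier spots, and printed in units of L1210-control. Each gene was taken by its brightest probe. A call needed 2-fold or 1.5-fold and a probe detected well above background in either line compared. Named were all member probes, partners called at 2-fold, the 3 highest and 3 lowest of each partner list by mean ratio, and the 5 genes closest to Dnajb9; other names were chosen after their values were seen. The members and lists were chosen with earlier results of these data known. The comparison with similarly bright genes was added after the values were seen. Calling was tested on simulated data. Alternatives were normexp (limma 3.58.1, R 4.3.3), quantile, median, E1A spike-in and deposited values, flagged spots kept, and the mean of all probes. Protein sequences were not analysed here. The summed B lineage markers are not reported here. Python 3.11.15, pandas 2.3.3 and numpy 2.4.6 were used.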

Additional observations from a re-analysis of the deposited data

How the results depend on the processing

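Taken by its brightest probe or the mean of its probes, no member passed 2-fold under any other scaling, background or probe rule run (a 3-fold threshold and the filters on dim probes could not change that count, since all 9 probes were well above background on every array); the dimmer Hsph1 probe did in Fbxw11d with spike-in scaling (1.155). Of the 27 member ratios, the sign was kept in 27 with outlier spots kept, 25 with quantile normalization or the deposited values, 24 with the mean of all probes, 21 with normexp or median centring and 11 with spike-in scaling. The mean of all probes includes the Hsp90aa1 probe that was well above background on no array. It moved Hsp90aa1 from 0.07 to -0.32 in Fbxw11a and from -0.0046 to 0.39 in Fbxw11d. Under spike-in scaling the members' median was -0.20 in Fbxw11a, -0.077 in Fbxw11c and 0.57 in Fbxw11d, 1 member passed 1.5-fold in Fbxw11a and 2 in Fbxw11d, 25 cytosolic and mitochondrial and 20 ER partners passed it in Fbxw11d, where 56.2% of all genes did, and the members' median log2 range was 0.77. With median centring the members' median was 0.20 in Fbxw11d, the log2 range 0.39, and 4 cytosolic and mitochondrial partners passed 1.5-fold in Fbxw11d (Hspa2, Chordc1 and Fkbp4 higher, Cryab lower), beside 19.7% of all genes. On the 75th percentile scale, 2 cytosolic and mitochondrial partners passed it in Fbxw11d without the filter on dim probes. The values under other scalings move with the shift of all genes; other causes were not tested. No paired analysis was possible because each line has 1 array.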
